A study of Mus musculus with 8 samples.

Results

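The miR-29 family was followed in hippocampi from BTBR and B6 mice. Its members were taken by name from the deposited table of miRNA counts, and 4 of the 6 listed strands are analysed, among 422 miRNAs in all: mmu-miR-29a-3p, mmu-miR-29b-3p, mmu-miR-29c-3p and mmu-miR-29a-5p. The strands mmu-miR-29b-1-5p and mmu-miR-29c-5p were not analysed here. The samples were 8 small RNA libraries, 1 for each of 4 B6 (C57BL/6J) and 4 BTBR (BTBR T+ Itpr3tf/J) adult male mice, 12 weeks old and of similar body weight, for which no treatment is named. BTBR mice serve as an inbred model of idiopathic autism, with B6 as the inbred control. The strains differ throughout the genome, so that no locus stands behind the comparison by design. Hippocampi were punched from brain slices and hold neurons, glia and vessels together, so fewer cells of a type and less RNA per cell cannot be told apart.

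miRNAs are cut from hairpin precursors, and of the pair of strands so released 1, the guide, is usually kept in the silencing complex while the other, the passenger, is degraded. The guide recognizes target mRNAs mainly through its seed, bases 2 to 8. In the miR-29 family the guide is the 3p strand. These miRNAs are scarce in the immature brain and become abundant as neurons mature, where they are known to restrain pro-apoptotic BH3-only genes, and they are also found in astrocytes. Other known targets are the DNA methyltransferases Dnmt3a and Dnmt3b, and collagens.

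The sequences are shown because they decide which reads can be told apart and which hairpin a read can come from. They are RefSeq sequences (GRCm38.p6), 5′ to 3′, with the seed in capitals:
miR-29a-3p: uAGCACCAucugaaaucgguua
miR-29c-3p: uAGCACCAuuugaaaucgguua
miR-29b-3p: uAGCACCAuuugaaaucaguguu
miR-29a-5p: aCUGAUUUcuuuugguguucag

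The 3 guides share the seed, and no other of the 367 miRNAs in the table that matched a RefSeq mature sequence has it. Counted from 1 at the 5′ end, miR-29a-3p differs from miR-29c-3p only by C10U, so these guides are told apart by 1 base. The authors' own counts carry fractions for both, in the same libraries, and the whole numbers deposited are rounded from them. Going from miR-29c-3p to miR-29b-3p, the 3′ ends differ by G18A, U21G and A22U, and miR-29b-3p is longer, with 23 nt against 22 nt. miR-29b-3p ends in AGUGUU, a hexamer known from work on human miR-29b as a signal for import into the nucleus. Among the 367 mature sequences, read in the strand of the miRNA, 0.545% end in this hexamer and 1.09% hold it anywhere. miR-29a-5p has a seed that no other matched miRNA shares.

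The family comes from 2 clusters. Mir29a (chr6:31062660-31062747) and Mir29b-1 (chr6:31063023-31063093) lie on the minus strand of chromosome 6, with 275 bases between them. GENCODE places no other gene over Mir29a, and the lincRNA Gm27019 overlaps the 5′ end of Mir29b-1 by 2 bases on the same strand. Mir29b-2 (chr1:195037040-195037120) and Mir29c (chr1:195037547-195037634) lie on the plus strand of chromosome 1, with 426 bases between them. Both are inside exon 3 of the transcript ENSMUST00000194584.1 of the non-coding gene A330023F24Rik, and on the opposite strand inside exon 11 of a transcript of Cd46, a complement regulator. The hairpins are shown with their annotated strands in capitals, because the same 3p strand stands in both miR-29b hairpins while the 5p strands differ:
Mir29a: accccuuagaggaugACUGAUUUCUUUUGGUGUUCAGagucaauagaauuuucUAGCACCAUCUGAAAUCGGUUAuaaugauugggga
Mir29b-1: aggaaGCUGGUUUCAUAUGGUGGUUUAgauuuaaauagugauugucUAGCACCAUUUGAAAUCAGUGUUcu
Mir29b-2: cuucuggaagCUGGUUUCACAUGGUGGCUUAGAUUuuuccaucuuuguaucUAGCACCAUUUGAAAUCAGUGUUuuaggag
Mir29c: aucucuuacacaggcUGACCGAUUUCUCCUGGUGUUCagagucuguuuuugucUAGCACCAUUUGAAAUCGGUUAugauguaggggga
The sequence of miR-29a-3p is thus encoded on chromosome 6 and that of miR-29c-3p on chromosome 1, while reads of miR-29b-3p cannot be assigned to either. The fractions may come from reads shared out between miRNAs, but how many, and between which miRNAs, is not stated. To that unknown extent, counts under the names miR-29a-3p and miR-29c-3p may not separate the clusters.

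The libraries held between 2247482 (BTBR replicate 2) and 7904990 (BTBR replicate 4) counts on miRNAs. Across all miRNAs, BTBR replicate 1 correlated more with the B6 mice (mean Pearson's r of log2 levels 0.977) than with the other BTBR mice (0.969), and BTBR replicate 2 had the lowest correlation with its own strain (0.957). Brain miRNAs were present throughout: each of the 8 listed neuronal miRNAs, among them miR-124-3p, was at 110 CPM or more in every mouse. CPM are a miRNA's counts scaled to a common library total after TMM normalization, which sets that total from the bulk of the miRNAs.

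The levels of the miR-29 guides did not differ detectably between BTBR and B6 mice. By the quasi-likelihood test of edgeR, adjusted by Benjamini-Hochberg for the 422 miRNAs, 0 of the 4 strands passed the threshold of 0.1, where 1.66% of all miRNAs did. At an unadjusted p under 0.05 the count was also 0 of 4, against 10.9% of all miRNAs, and DESeq2, edgeR's exact test and limma-voom gave 0 as well. These tests called 5.65%, 3.79% and 1.42% of the miRNAs for which they gave an adjusted p, and DESeq2 gave none for miR-29a-5p. In 0 of the 4 did the strains stand apart without overlap, against 6.64% of all miRNAs.

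miR-29a-3p, the most abundant strand of the family and 51st of the 422 miRNAs by mean level, had 1434, 1661, 1698 and 1675 CPM in B6 replicates 1 to 4. In BTBR replicates 1 to 4 it had 1779, 1192, 2026 and 1697 CPM. The BTBR mice held both the lowest and the highest level, and the B6 mice lay between them. The means were 1617 ± 123 CPM for B6 against 1674 ± 350.0 CPM for BTBR (SD, n = 4), a log2 difference of 0.05 ± 0.20 (standard error here and for the strands that follow; edgeR quasi-likelihood, adjusted p = 0.949). The 95% interval of this change runs from 0.769-fold to 1.39-fold.

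miR-29b-3p, the guide encoded in both clusters, had 749, 797, 886 and 845 CPM in the B6 mice. It had 984, 476, 880 and 866 CPM in the BTBR mice. BTBR replicate 2 lay below all other mice and BTBR replicate 1 above them, and the remaining BTBR mice lay within the range of B6. The means of 819 ± 59.3 and 801 ± 223 CPM (SD, n = 4) gave a log2 difference of −0.03 ± 0.23 (edgeR, adjusted p = 0.974), with an interval of 0.691-fold to 1.39-fold. The sign turned to 0.12 without BTBR replicate 2 and to 0.13 with counts scaled by library size only, and in both fits the adjusted p stayed above the threshold.

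miR-29c-3p, the guide of the chromosome 1 cluster, stood at 276, 422, 312 and 295 CPM in B6 replicates 1 to 4, against 292, 278, 408 and 362 CPM in BTBR. B6 replicate 2 was the highest mouse and B6 replicate 1 the lowest, so that the range of B6 enclosed all BTBR mice. The means were 326 ± 65.2 and 335 ± 61.1 CPM (SD, n = 4), with a log2 difference of 0.04 ± 0.22 (edgeR, adjusted p = 0.968) and an interval of 0.740-fold to 1.43-fold.

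miR-29a-5p, the passenger of miR-29a, was counted with 11, 18, 21 and 15 reads in the B6 libraries and 18, 15, 12 and 24 reads in the BTBR libraries. As levels these were 2.11, 3.01, 4.24 and 3.37 CPM in B6, against 3.70, 6.73, 3.01 and 2.89 CPM in BTBR. Only BTBR replicate 2 lay above the range of B6. At these counts the exact 95% Poisson interval of a library is wide, from 8.40 to 24.7 reads for the 15 reads of BTBR replicate 2, and covers counting error only. The log2 difference was 0.31 ± 0.46 (edgeR, adjusted p = 0.822), with an interval from −0.70 to 1.32 on the log2 scale, too wide to show a small difference at this depth. Without BTBR replicate 2 it was −0.03.

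**Figure D1:**
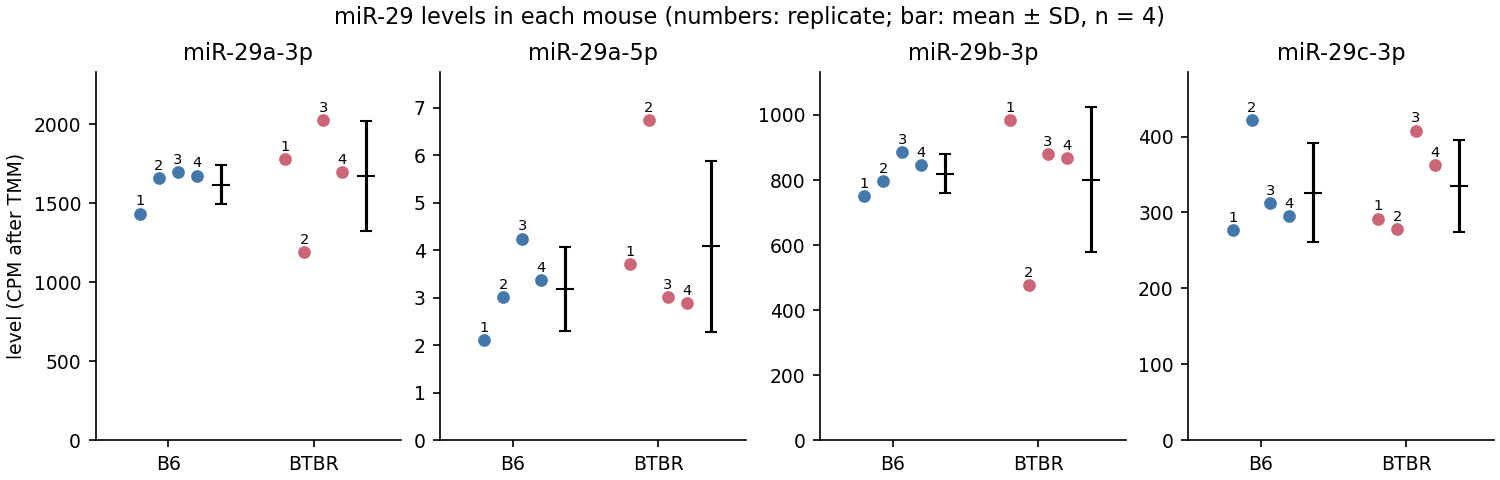
Level of each miR-29 strand in CPM after TMM normalization (vertical axes, each from 0) in the 4 B6 and 4 BTBR mice, with the replicate number above each point and the mean ± SD beside each group. The strains overlap in all 4 panels, and BTBR replicate 2 is the lowest mouse for miR-29a-3p (1192 CPM) and miR-29b-3p (476 CPM) and the highest for miR-29a-5p (6.73 CPM).

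The exact permutation test on mean log2(CPM + 0.5), two-sided over the 70 assignments of the 8 mice, whose smallest possible p is 0.0286, gave p = 0.800 for miR-29a-3p, 0.943 for miR-29b-3p, 0.914 for miR-29c-3p and 0.486 for miR-29a-5p. The order of the levels was the same in each of the 8 mice: miR-29a-3p above miR-29b-3p, above miR-29c-3p, above miR-29a-5p. The ranges of neighbours in this order did not overlap across mice. This is an order of reads per miRNA of near equal length, and unequal ligation or amplification of the strands was not tested. Summed over the 3 guides, the family reached 2763 ± 205 CPM for B6 against 2810 ± 598 CPM for BTBR (SD, n = 4), with the lowest sum in BTBR replicate 2 (1946 CPM) and the highest in BTBR replicate 3 (3314 CPM).

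**Figure D2:**
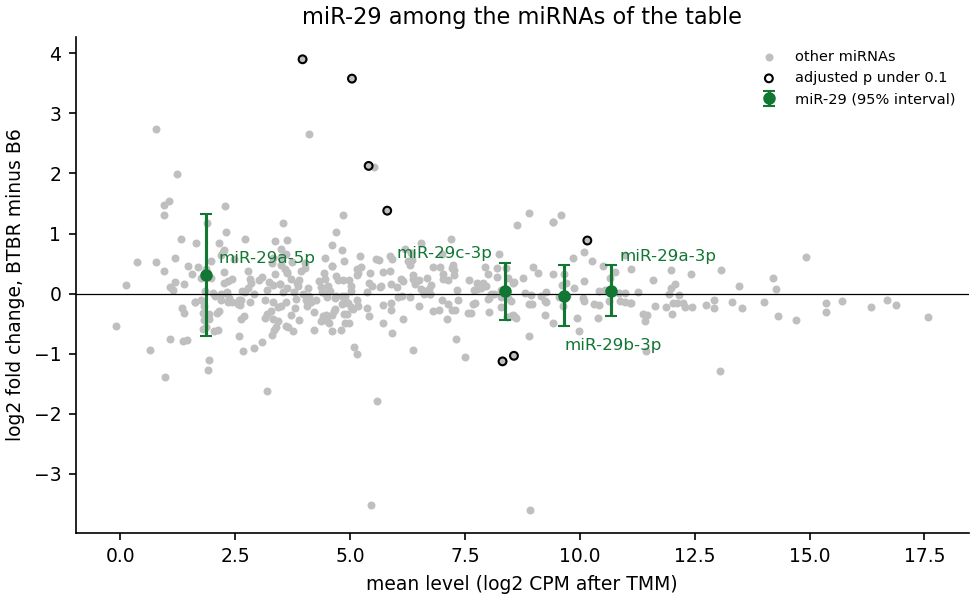
Log2 fold change of BTBR minus B6 (vertical axis) against mean level in log2 CPM (horizontal axis) for the 422 miRNAs, with the miR-29 strands in green and their 95% intervals, and the 7 miRNAs past the adjusted threshold ringed. The intervals of all 4 strands cross 0, and that of miR-29a-5p, the least abundant, is the widest.

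The pooled within-strain SD of log2 levels was 0.24 for miR-29a-3p, 0.27 for miR-29c-3p and 0.34 for miR-29b-3p, and 12.6%, 15.6% and 32.7% of the 422 miRNAs had a smaller one. Among the 50 miRNAs nearest in mean level, the shares with a smaller SD were higher, at 24.0%, 28.0% and 56.0%. BTBR replicate 2 was the mouse farthest from the others of its strain for both miR-29a-3p and miR-29b-3p. Without it, the log2 fold changes were 0.15 (standard error 0.15) and 0.12 (standard error 0.14), neither past the threshold (edgeR, adjusted p = 0.742 and 0.780).

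**Figure D3:**
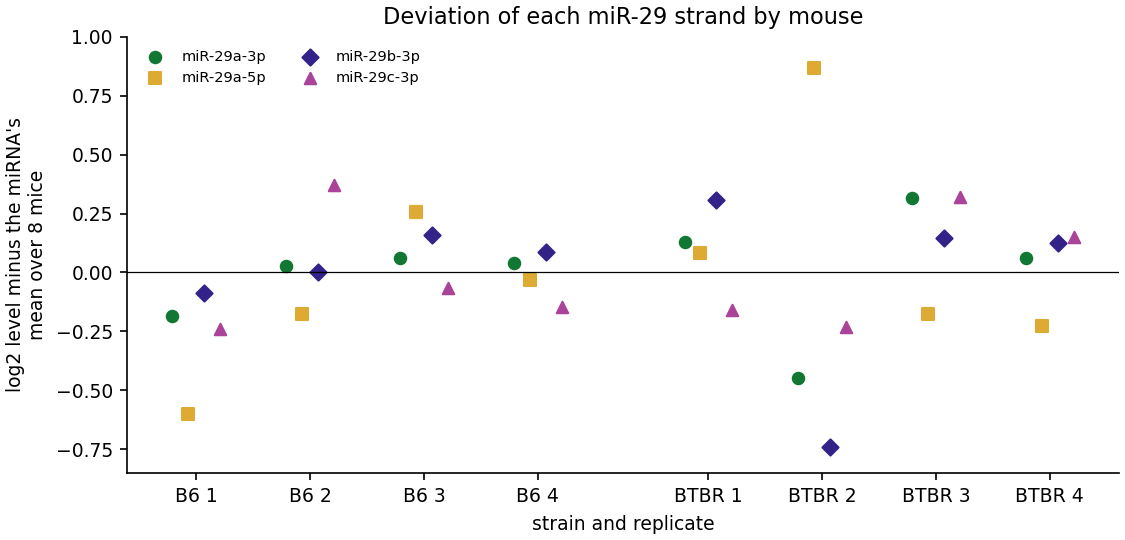
Log2 level of each miR-29 strand in each mouse minus that strand's mean over the 8 mice (vertical axis), by strain and replicate. miR-29a-3p and miR-29b-3p move together, with the lowest points in BTBR replicate 2 (−0.45 and −0.74), while miR-29c-3p is highest in B6 replicate 2 (0.37) and BTBR replicate 3 (0.32).

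Across the 8 mice, miR-29a-3p and miR-29b-3p rose and fell together. Pearson's r of their log2 levels was 0.892 (exact permutation p = 0.00533, adjusted p = 0.0320 over 12 tests of 6 pairs) and Spearman's rho 0.929 (exact permutation p = 0.00223, adjusted p = 0.0268). With BTBR replicates 2 and 3, the mice farthest from the median of miR-29a-3p, left out, r was 0.867, and without BTBR replicate 2 alone it was 0.674. Taken as deviations from the strain means, r was 0.910. miR-29c-3p was less closely tied to miR-29a-3p (r = 0.609, exact permutation p = 0.0944, adjusted p = 0.378, and rho = 0.452, exact permutation p = 0.267, adjusted p = 0.535) and to miR-29b-3p (r = 0.337, exact permutation p = 0.477, adjusted p = 0.636, and rho = 0.310, exact permutation p = 0.462, adjusted p = 0.636). Leaving out the farthest mice, these r were 0.286 and 0.300. Without BTBR replicate 2 alone, they were 0.550 and −0.052. The passenger miR-29a-5p was not tied detectably to any guide (r between −0.602 and −0.319, exact permutation p of 0.155 or more, adjusted p of 0.466 or more). Spearman's rho was −0.048 with miR-29a-3p, 0.119 with miR-29b-3p and −0.167 with miR-29c-3p (exact permutation p of 0.703 or more, adjusted p of 0.844 or more). Without BTBR replicate 2, Pearson's r turned from −0.480 to 0.489 with miR-29a-3p and from −0.602 to 0.753 with miR-29b-3p. Whether the first correlation differs from the others was not tested, and all levels of a library share its scaling factor. Some miRNAs outside the family had a higher Pearson's r, among them miR-124-3p with miR-29a-3p (0.955) and miR-329-5p with miR-29b-3p (0.976). Spearman's rho of these was lower, at 0.738 and 0.833.

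The rule of comparing clusters was followed with ratios taken within a library, which need no scaling. The ratio of counts for miR-29a-3p, encoded on chromosome 6, to those for miR-29c-3p, encoded on chromosome 1, was 5.19, 3.94, 5.44 and 5.68 in the B6 libraries and 6.10, 4.29, 4.97 and 4.68 in the BTBR libraries. B6 replicate 2 had the lowest ratio and BTBR replicate 1 the highest, and the strains overlapped. The difference of mean log2 ratios, BTBR minus B6, was −0.01 (exact permutation p = 0.943, adjusted p = 0.943 over 5 ratios). How far any reads shared out between miRNAs moved the ratio was not tested.

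The ratio of miR-29a-3p to miR-29b-3p, which share the Mir29a and Mir29b-1 cluster but not Mir29b-2, was tight in B6, at 1.91, 2.09, 1.92 and 1.98. In BTBR it was 1.81, 2.51, 2.30 and 1.96, so that replicates 2 and 3 lay above all B6 mice and replicates 1 and 4 did not. The log2 difference was 0.11 (exact permutation p = 0.371, adjusted p = 0.929). The ratio of miR-29c-3p to miR-29b-3p was 0.369, 0.529, 0.352 and 0.349 in B6 and 0.297, 0.584, 0.464 and 0.418 in BTBR mice. It was highest in BTBR replicate 2 and B6 replicate 2 and lowest in BTBR replicate 1, with a log2 difference of 0.12 (exact permutation p = 0.629, adjusted p = 0.929). The ratio of miR-29b-3p to the sum of the other guides was 0.423 ± 0.0272 in B6 and 0.395 ± 0.0665 in BTBR mice (SD, n = 4), with a log2 difference of −0.11 (exact permutation p = 0.457, adjusted p = 0.929). Within the 3 guides, miR-29b-3p took 29.7% ± 1.37 of the reads in B6 and 28.2% ± 3.41 in BTBR mice, from 24.5% in BTBR replicate 2 to 32.2% in BTBR replicate 1.

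**Figure D4:**
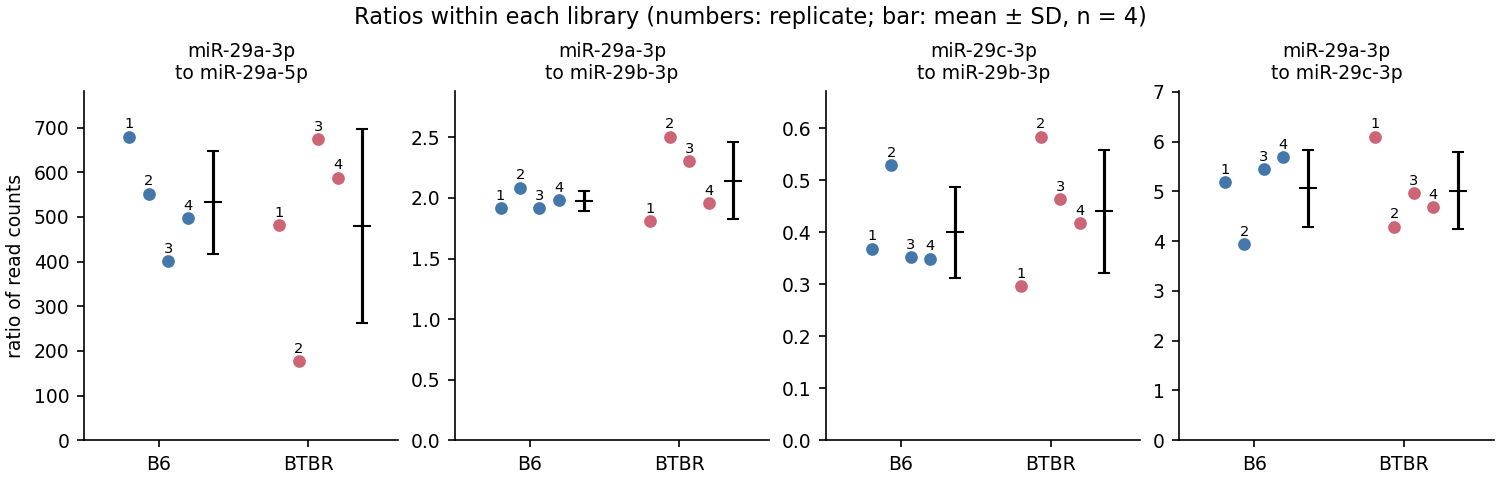
Ratios of read counts within a library (vertical axes, each from 0) in the 4 B6 and 4 BTBR mice, with replicate numbers and the mean ± SD of each group. The strains overlap in every ratio, and the ratio of miR-29a-3p to its passenger miR-29a-5p is lowest in BTBR replicate 2, at 177.

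Guide and passenger could be compared for the miR-29a hairpin. There were 679, 552, 401 and 497 reads of miR-29a-3p for each read of miR-29a-5p in the B6 libraries, and 481, 177, 674 and 588 in the BTBR libraries. The log2 difference between the strains was −0.28 (exact permutation p = 0.743, adjusted p = 0.929), and without BTBR replicate 2 it was 0.14. As a share of all miR-29a reads, the passenger made up 0.562% in BTBR replicate 2 (exact binomial 95% interval 0.315% to 0.925%) and between 0.147% and 0.249% in the other 7 mice. These intervals cover counting error only. The intervals of B6 replicates 3 and 4 and BTBR replicate 1 reach up to 0.380%, 0.331% and 0.328% and overlap that of BTBR replicate 2, and those of the other mice do not.

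Among the 99 hairpins whose 5p and 3p strands are both in the table under the same name, miR-29a stood 13th by the mean log2 ratio of its major to its minor strand. Pooled over the libraries the ratio was 498, against a median of 12.3 over the hairpins. Only hairpins with at least 1 read of both strands in every library could enter, so the rank and median hold among these 99. Hairpins with a scarcer minor strand may be left out. In BTBR replicate 2 the log2 ratio of miR-29a was 1.62 below the mean of the other mice (−1.62), whereas the median of that deviation over the 99 hairpins was 0.06, and 9.09% of hairpins had a lower one. BTBR replicate 2 was also the library with the fewest reads, and the part of this in its ratio was not tested.

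**Figure D5:**
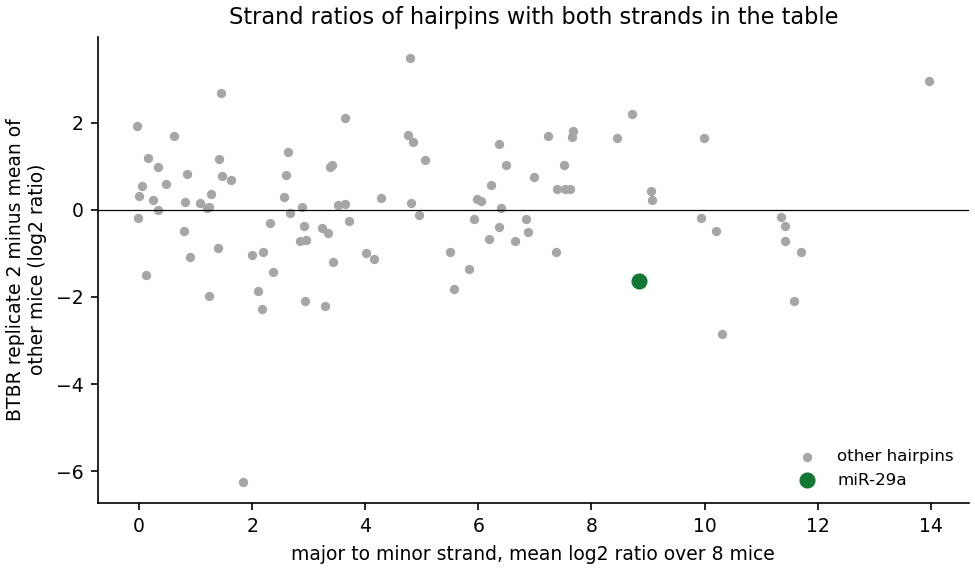
For 99 hairpins, the log2 ratio of BTBR replicate 2 minus the mean of the other 7 mice (vertical axis) against the mean log2 ratio of the major to the minor strand over 8 mice (horizontal axis). miR-29a, in green, lies at 8.84 on the horizontal and −1.62 on the vertical axis, with 9.09% of the hairpins below it.

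The miRNAs whose log2 levels followed the guides most closely over the 8 mice, out of 418 outside the family, were found by Pearson's r and are given as a description. For miR-29a-3p they were the neuronal miR-124-3p (r = 0.955), miR-379-3p (0.954) and miR-543-5p (0.925). For miR-29b-3p they were miR-329-5p (0.976), miR-376c-3p (0.974) and miR-431-3p (0.955). miR-379-3p, miR-543-5p, miR-329-5p and miR-431-3p have their hairpins on chromosome 12. No position was matched for miR-376c-3p or miR-124-3p. The share of the 418 miRNAs encoded on chromosome 12 was not counted, so no link to that chromosome can be read from this. Each of these 6 miRNAs was lowest in BTBR replicate 2, and without this mouse r lay between 0.798 for miR-376c-3p and 0.923 for miR-124-3p. miR-124-3p had 932 CPM in BTBR replicate 2 and from 1129 to 2195 CPM in the other mice. For miR-29c-3p the closest were miR-7689-3p (0.923), miR-700-3p (0.879) and miR-30c-5p (0.846).

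In a list of 10 other miRNAs known to target genes of DNA methylation or Polycomb, 0 passed edgeR's threshold in either direction and 3 had an unadjusted p under 0.05, where 10.9% of all miRNAs did. DESeq2 called 1 of the 10, against 5.65% of all, and edgeR's exact test and limma-voom called 0. The list's median log2 fold change was 0.14, against 0.02 over all miRNAs. The highest was that of miR-148b-3p, of a family known to target DNA methyltransferases, at 1.31 with a standard error of 0.60 (edgeR, adjusted p = 0.451). It rested on BTBR replicate 2, with 2826 CPM against 239 to 900 CPM in the other BTBR mice, and without this mouse it was 0.21 (edgeR, adjusted p = 0.848). The lowest was that of miR-22-3p, known to target Tet2, at −0.37 with a standard error of 0.27 (edgeR, adjusted p = 0.676), and it was −0.66 without BTBR replicate 1 and −0.21 without BTBR replicate 2. In the list of 8 neuronal miRNAs 0 passed and 0 had an unadjusted p under 0.05, by DESeq2, edgeR's exact test and limma-voom also 0 were called, and the median was 0.14. Its highest value was 0.47 for miR-134-5p (edgeR, adjusted p = 0.494) and its lowest −0.62 for miR-138-5p (edgeR, adjusted p = 0.575). The former was 0.28 without BTBR replicate 4, and the latter −1.06 without BTBR replicate 1 (edgeR, adjusted p = 0.138).

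Markers of other cells are given beside BTBR replicate 2, where miR-29a-3p and miR-29b-3p were lowest. The summed level of 4 microglial and leukocyte miRNAs was 1569 CPM in this mouse, the highest of the 8, against 926 to 1082 CPM in B6 mice. Of the 5 red blood cell miRNAs, the pair miR-486a-5p and miR-486b-5p, equal to each other in all libraries, entered once. The 4 distinct ones summed to 1371 CPM in this mouse, against 303 to 853 CPM in B6 and from 531 CPM upward in the other BTBR mice. With all 5 counted, the sum was 2582 CPM here and 2608 CPM in BTBR replicate 3, the mouse with the highest miR-29a-3p. Of these 4, 3 had an unadjusted p under 0.05, against 10.9% of all miRNAs, and their median log2 fold change was 1.25. edgeR's quasi-likelihood test called 1 of the 4, against 1.66% of all, DESeq2 3, against 5.65%, edgeR's exact test 2, against 3.79%, and limma-voom 1, against 1.42%. miR-451a, which passed edgeR's threshold, was higher in BTBR mice (log2 fold change 1.38, adjusted p = 0.0339), but not past it without BTBR replicate 4 (1.24, edgeR adjusted p = 0.125). The 8 neuronal miRNAs summed to 60843 CPM, the lowest of the BTBR mice and within the range of B6 (51696 to 82201 CPM). Most of this sum was miR-9-5p and miR-128-3p, with means of 39458 and 20564 CPM in BTBR mice. In BTBR replicate 2, miR-124-3p (932 CPM) and miR-138-5p (466 CPM) were the lowest of the 8 mice. There miR-134-5p (192 CPM) lay above all B6 mice, and the other neuronal miRNAs are not given for this mouse. The 3 oligodendrocyte miRNAs summed to 2842 CPM, within 2238 to 4256 CPM in B6. The 4 vessel miRNAs summed to 6831 CPM, the lowest of the 8 mice, and the 7 choroid plexus miRNAs to 9535 CPM, within 5185 to 39749 CPM in B6. Of the oligodendrocyte, microglial, choroid plexus and vessel lists 0 passed edgeR's threshold, with 4 of the 7 choroid plexus miRNAs at an unadjusted p under 0.05, against 10.9% of all miRNAs, and 0 in the oligodendrocyte, microglial and vessel lists. The choroid plexus list had a median log2 fold change of −1.30, from −3.60 for miR-1298-5p to 0.91 for miR-211-5p, its 1 member above 0. Its sum was 39749 and 16338 CPM in B6 replicates 1 and 2. In B6 replicates 3 and 4 it was 6385 and 5185 CPM, near the 5227 to 9535 CPM of the BTBR mice. DESeq2 called 2 of the 7 choroid plexus miRNAs, against 5.65% of all, edgeR's exact test 3, against 3.79%, and limma-voom 0, against 1.42%. The deposited counts cover only miRNAs with at least 1 read in every library, so no marker analysed could be at 0. Of the 5 listed microglial and leukocyte miRNAs, 4 were among them. The part of these cells in the miR-29 levels was not tested.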

How the data were processed

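Small RNA libraries (TruSeq) from 4 B6 and 4 BTBR hippocampi were sequenced by the authors, who removed adapters, mapped reads to GRCm38 with sRNAbench, which runs Bowtie, and assigned reads lying within miRBase annotations. The authors deposited whole-number counts for 422 miRNAs, not normalized, with at least 1 read per library. Their own counts hold fractions for some miRNAs, miR-29a-3p and miR-29c-3p among them, so the deposited counts are rounded. How many reads were shared out, between which miRNAs, and the mismatches allowed, are not given in the sources used here. The counts of this pair are uncertain to that extent. Molecular identifiers are not named. Strain and replicate came from the labels, and these name no batch.

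Counts were analysed with edgeR 4.0.16 (TMM, quasi-likelihood test, no covariates, no filter), limma 3.58.1 and DESeq2 1.42.0 (R 4.3.3), and ratios in Python 3.11.15. Benjamini-Hochberg adjustment covered the 422 miRNAs, and calls were made under 0.1, as in the study. Each standard error was the absolute log2 fold change divided by the root of F, and intervals from the t distribution with the fit's degrees of freedom. Levels are CPM after TMM, and logs use log2(CPM + 0.5). Ratios added 0.5 to each count on the log scale and were compared by exact permutation. The fit was tested on simulated data before use.

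The miRNAs named are the members, miRNAs sharing their seed, the 3 closest to each guide, and of each list those past the threshold or highest or lowest. The members and lists were chosen with earlier results of these data known. Sequences and loci are from RefSeq and GENCODE M21 on GRCm38. P-values measure the spread between mice. Alternatives were other tests, normalizations, filters and dispersions, a replicate block, and each mouse left out in turn. Leaving mice out for the list miRNAs named, and counting identical rows once, were chosen after seeing the data.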

Additional observations from a re-analysis of the deposited data

Results flagged for a closer look

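Of 20 groups of 4 mice examined by Dixon's ratio (the gap of the extreme mouse to its neighbour over the range, critical value 0.829), 2 held a mouse that stood apart, and chance marks about 1 in 20 groups. The first was B6 replicate 1 for miR-29a-3p, at 1434 CPM below the other B6 mice, which lay within 1661 to 1698 CPM. The same mouse had the highest sums of choroid plexus (39749 CPM), vessel (13365 CPM) and oligodendrocyte (4256 CPM) miRNAs of the 8, and their part in this level was not tested. The second was B6 replicate 2 for the ratio of miR-29c-3p to miR-29b-3p, at 0.529, above the 0.349 to 0.369 of the other B6 mice. BTBR replicate 2, the lowest mouse for miR-29b-3p, did not pass the critical value there (0.769).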

How the results depend on the processing

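In 19 alternatives 0 members passed the threshold, and the adjusted p of their log2 fold changes, by the test of each fit, stayed between 0.682 and 0.9995. The signs of these small values were not stable. For miR-29b-3p the sign turned to 0.0099 with upper quartile normalization and to 0.13 with library size only, a scaling that moved the median of all miRNAs to 0.15 from 0.02. With 1 mouse at a time left out, the log2 fold change lay between −0.064 and 0.15 for miR-29a-3p, −0.14 and 0.12 for miR-29b-3p, −0.092 and 0.21 for miR-29c-3p, and −0.026 and 0.42 for miR-29a-5p. The log2 ratio differences then lay between −0.50 and 0.14 for miR-29a-3p to miR-29a-5p, −0.13 and 0.056 for miR-29a-3p to miR-29c-3p, −0.028 and 0.30 for miR-29c-3p to miR-29b-3p, 0.029 and 0.19 for miR-29a-3p to miR-29b-3p, and −0.20 and −0.019 for miR-29b-3p to the other guides. The difference of medians was 0.031 for miR-29a-3p to miR-29a-5p and 0.12 for miR-29a-3p to miR-29b-3p. It was 0.29 for miR-29c-3p to miR-29b-3p, −0.14 for miR-29a-3p to miR-29c-3p and −0.15 for miR-29b-3p to the other guides. By exact permutation the adjusted p of these differences was 0.714 or more. The count over all 422 miRNAs was 7, and it became 21 with DESeq2, 16 with edgeR's exact test, 4 with library size only, 4 at a threshold of 0.05, and between 3 and 13 with a mouse left out, the lowest on omitting BTBR replicate 3 or 4 and the highest on omitting B6 replicate 2. The cause was not tested. With the replicate block it was 3, and 0 members passed. No pairing of the mice by number was seen (correlations of same-numbered deviations between −0.151 and 0.0516, and 1 of 8 mice correlated best with its own number). This cannot show that same-numbered mice were handled apart. Counts of 11 to 24 reads limit what can be said of miR-29a-5p.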
